A study of Mus musculus with 6 samples.

Results

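The tumor necrosis factor (TNF) superfamily of ligands, their receptors and the TRAF adaptors that the receptors recruit were examined in CD4+TCRB+ lymph node T cells of female mice whose fathers carried different Y chromosomes (ChrY). Members were taken by gene symbol: every transcript whose symbol begins with Tnfrsf or Tnfsf, the numbered TRAF adaptors, and Cd27, Cd40, Cd40lg, Fas, Fasl, Lta, Ltb, Ltbr, Ngfr, Edar, Relt, Rell1 and Rell2. This gave 48 of the 19938 genes that carried 1 symbol, each measured by 1 transcript cluster, which is a set of probes along the whole transcript. B6 mice were wild type C57BL/6J, and B6-ChrYSJL mice were of the same background with the ChrY of SJL. The females carry no ChrY, so the intended difference between strains was the ChrY of the paternal line. The paper expects the rest of the genome to be nearly identical to B6, and its SNP analysis detected no donor contamination. Other differences between the strains were not tested here. All mice were naive females aged 8 weeks from mixed-sex litters, and each array held RNA of cells sorted from peripheral lymph nodes (inguinal, brachial, axillary) of 5 pooled mice, with 3 pools per strain and 6 arrays in all. Values are log2 signals of Affymetrix arrays, and a difference is B6-ChrYSJL minus B6 on that scale.

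Ligands of the TNF superfamily are mostly membrane proteins that act as trimers, and binding clusters their receptors. Some receptors, such as Fas and Tnfrsf1a, carry a death domain through which they can start apoptosis or inflammatory signalling, whereas others, such as Cd27, Tnfrsf4 (OX40), Tnfrsf9 (4-1BB) and Tnfrsf18 (GITR), recruit TRAF adaptors and activate NF-kappaB. On CD4+ T cells the second kind is known for co-stimulation, and Tnfrsf4, Tnfrsf9, Tnfrsf18 and Tnfrsf1b (TNFR2) are known to be high on regulatory and recently activated cells.

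Rell1 was the member that differed most, and it fell by 1.03 on the log2 scale in B6-ChrYSJL females. It was the only member past a false discovery rate (FDR) of 0.05 over the 23410 transcripts tested, of which 4 (0.0171%) passed. Among the other 47 members the differences were small, between -0.29 and 0.23. Of all 48 members, 10 were lower at an unadjusted limma p under 0.05, beside 5.92% of all transcripts tested, and 1 was higher, beside 4.69%. In 11 members each B6-ChrYSJL pool lay below each B6 pool, beside 9.42% of all transcripts, and in 2 each lay above, beside 7.68%. The median difference was -0.08 over the 48 members, -0.07 without Rell1, and -0.0036 over all transcripts tested, with 31 members below 0 and 17 above. Above the background level described below were 41 members and 14413 of the transcripts tested. Of those 14413, 1031 were lower and 574 higher at that p, and 1759 were lower and 1147 higher without overlap. The median over the 14413 was -0.0156. Of the 10 lower members, 5 were receptors encoded on chromosome 4, and among the 4 brightest members the pools of Ltb, Cd27 and Cd40lg overlapped while those of Tnfrsf18 did not.

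**Figure D1:**
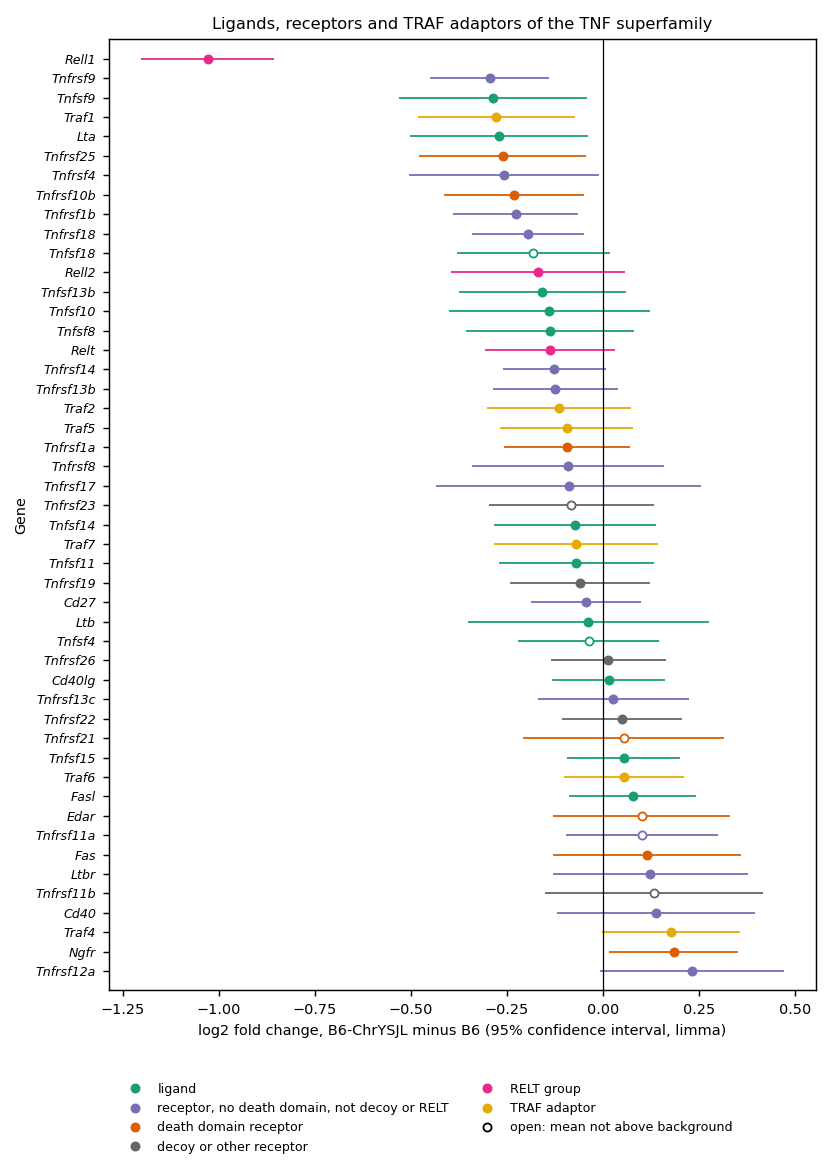
Differences of the 48 members in log2 units (x axis, B6-ChrYSJL minus B6), ordered from the lowest to the highest (y axis) and coloured by role. Points are limma estimates from 3 pools per strain, bars are 95% confidence intervals, and open points have a mean not above the background level of 5.98. Rell1 lies apart at -1.03 and the others lie between -0.29 and 0.23.

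The arrays were alike in scale, with medians from 6.41 to 6.44 and pairwise correlations from 0.991 to 0.993. A background level of 5.98 was set by olfactory and vomeronasal receptor transcripts, and 61.6% of the transcripts tested lay above it. T cell markers averaged 11.823 to 11.875 on every array, with a median difference of -0.0032 over 5 measured genes, and Cd4 averaged 11.52. Some marker lists of other cells differed between strains and some did not. The lists were chosen with earlier results of these data known, so their counts describe the arrays and are no independent test. At an unadjusted p under 0.05 in limma, 5.92% of all transcripts tested were lower and 4.69% higher. For regulatory T cells, 7 of 12 genes were lower at an unadjusted p under 0.05, with a median of -0.21 and list means of 8.78 to 8.94 in B6 and 8.56 to 8.64 in B6-ChrYSJL. For activated or memory T cells, 11 of 12 were lower, with a median of -0.46 and means of 8.36 to 8.50 against 7.83 to 8.06. Both CD8 genes were lower, with a median of -0.41 and means of 7.42 to 7.62 against 7.03 to 7.18. B cell genes, 8 of 12 above background, had a median of 0.21, and their means were 6.15 to 6.25 in B6 and 6.10, 6.53 and 6.63 in the B6-ChrYSJL pools. Of the 12, 2 were higher, H2-Ab1 and Ebf1, and Ebf1 lay below background with a mean of 5.23. Stromal genes had a median of 0.18 with 3 of 5 higher and means of 6.47 to 6.54 against 6.58 to 6.68, while myeloid genes, 2 of 8 above background, and natural killer genes, 1 of 4 above background, had medians of -0.02 and -0.13. Nothing in bulk RNA tells fewer cells of a type from less RNA per cell.

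Rell1 encodes a small membrane protein related to RELT, a receptor of the family, and its human counterpart is known to bind RELT. The B6 pools had log2 values of 8.09, 8.23 and 8.21, and the B6-ChrYSJL pools 7.11, 7.08 and 7.25. The lowest B6 pool lay 0.84 above the highest B6-ChrYSJL pool, beside SDs of 0.08 in B6 and 0.09 in B6-ChrYSJL. The difference was -1.03 (standard error 0.08, 95% confidence interval -1.20 to -0.86, adjusted p = 0.0134). The values are whole-transcript summaries, so a difference in single exons cannot be seen in them. The call was lost without some arrays, its adjusted p being 0.118 without B6 replicate 2, 0.163 without B6-ChrYSJL replicate 1 and 0.166 without B6-ChrYSJL replicate 2, while the difference stayed between -1.082 and -0.996 whichever array was left out. The adjusted p was also 0.226 in the methods' unmoderated linear model and 0.134 when all 35556 deposited clusters were tested.

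Relt itself, which can activate NF-kappaB, was at 7.28, 7.44 and 7.26 in B6 and at 7.23, 7.14 and 7.19 in B6-ChrYSJL. The strains did not overlap, but the gap between the nearest pools was only 0.02, and the difference of -0.14 (standard error 0.07) did not pass the test (adjusted p = 0.544). Without B6 replicate 2 it was -0.08. Rell2, the other RELT relative, had means of 7.10 ± 0.14 and 6.93 ± 0.14 (B6 and B6-ChrYSJL, SD of 3 pools here and wherever ± is written), with overlapping pools. All 3 genes of this group were thus lower in mean, by sizes from 0.14 to 1.03, and Rell1 alone was called.

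Rell1 lies on chromosome 5, on the minus strand. The part of its RefSeq promoter window that is outside the annotated gene (build GRCm38.p6, chr5:63969021-63969147, minus strand, 5′ to 3′, 127 bases) is shown because it belongs to the 1 called member. It has a GC content of 76.4%, and no letter is in capitals because neither NF-kappaB motif form described later was found in its window.
Rell1: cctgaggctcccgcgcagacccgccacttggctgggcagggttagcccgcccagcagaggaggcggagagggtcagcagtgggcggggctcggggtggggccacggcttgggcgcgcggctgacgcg

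Receptors without a death domain, apart from RELT and from the decoy and other receptors described later, numbered 14. Of these, 4 were lower at an unadjusted p under 0.05 and none higher, beside 5.92% and 4.69% of all transcripts tested. Their median difference was -0.09. All 4 of those at an unadjusted p under 0.05 lie on chromosome 4. Tnfrsf9, an inducible co-stimulatory receptor, was at 8.76, 8.78 and 8.86 in the B6 pools and at 8.43, 8.54 and 8.55 in the B6-ChrYSJL pools. Its strains were apart by a gap of 0.21, and the difference was -0.29 (standard error 0.07, adjusted p = 0.282), the second largest in size among the members. It kept an unadjusted p under 0.05 whichever array was left out, as did Rell1, Tnfrsf1b and Tnfrsf18.

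Tnfrsf1b, the TNF receptor without a death domain, was at 9.08, 9.02 and 9.12 in B6 and at 8.77, 8.94 and 8.83 in B6-ChrYSJL, a difference of -0.23 (standard error 0.07, adjusted p = 0.368). Every B6-ChrYSJL pool was lower, by a gap of 0.08 between the nearest pools. Tnfrsf18, which marks regulatory T cells, was at 10.14, 10.05 and 10.11 in B6 and at 9.87, 9.92 and 9.93 in B6-ChrYSJL, a difference of -0.20 (standard error 0.06, adjusted p = 0.378). It was the third brightest member, and its pools did not overlap. Tnfrsf4, its immediate neighbour on the chromosome, was at 9.45, 9.32 and 9.61 in B6 and at 9.16, 9.39 and 9.06 in B6-ChrYSJL. Here B6-ChrYSJL replicate 2 lay above B6 replicate 2, so the strains overlapped, and the difference was -0.26 (standard error 0.11, adjusted p = 0.459).

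Tnfrsf14 (HVEM), a receptor for Tnfsf14 and for the inhibitory molecule Btla, was the member with the tightest pools. Its B6 values were 9.25, 9.23 and 9.23 and its B6-ChrYSJL values 9.11, 9.11 and 9.11. The spread within strains was 0.0086, beside a median of 0.11 over the members, and the gap between strains was 0.11. The difference of -0.13 (standard error 0.06) did not pass (adjusted p = 0.494), nor did it in the methods' unmoderated linear model, which uses only the gene's own spread (adjusted p = 0.220). Tnfrsf8 (CD30), next to Tnfrsf1b, was dim, with means of 6.37 ± 0.21 in B6 and 6.28 ± 0.09 in B6-ChrYSJL and overlapping pools.

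With Tnfrsf25, described with the death domain receptors, 7 receptors lie on chromosome 4, in the order Tnfrsf1b, Tnfrsf8, Tnfrsf9, Tnfrsf25, Tnfrsf14, Tnfrsf4 and Tnfrsf18. All 7 were lower in mean, 5 had an unadjusted p under 0.05, 5 had strains that did not overlap, and their median difference was -0.23. Grouping by chromosome was not among the results planned beforehand, so these counts describe the 7 receptors and test nothing. Over the 1312 single-symbol transcripts of chromosome 4 the median was 0.0034, with 79 lower and 73 higher at an unadjusted p under 0.05. Without overlap between strains, 130 were lower and 96 higher. The 7 receptors lay above background, as did 923 of the 1312, whose median was -0.0087. Of the 923, 68 were lower and 44 higher at that p, and 111 were lower and 66 higher without overlap. The other 2 members on this chromosome, the neighbouring ligand genes Tnfsf15 and Tnfsf8, differed by 0.05 and -0.14 with overlapping pools. The regulatory and memory T cell lists were lower in the same arrays, by medians of -0.21 and -0.46. As said above, these lists were chosen with earlier results of these data known. Foxp3, the defining factor of regulatory T cells, was at -0.21 (standard error 0.06, adjusted p = 0.359). Of the 12 regulatory genes, 7 were lower at an unadjusted p under 0.05, but Il2ra and Lrrc32 were at -0.02 and Gpr83 at 0.18. The part of these cells in the values of the receptors was not tested.

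**Figure D2:**
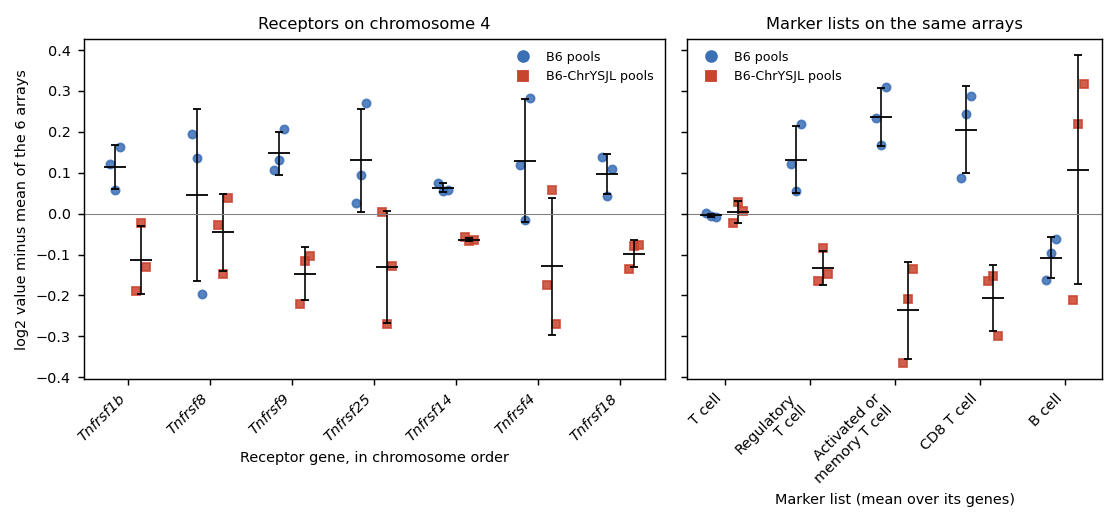
Left, log2 values of the 7 receptors on chromosome 4 in each pool, as the distance from the mean of the 6 arrays (y axis), in chromosome order (x axis). Right, the same for means over marker lists; circles are B6 pools, squares B6-ChrYSJL pools, and bars show mean and SD of 3 pools. B6-ChrYSJL pools lie below B6 pools without overlap in 5 of the 7 receptors and in the regulatory, memory and CD8 lists, while the T cell list is level. The lists were chosen with earlier results of these data known, and the grouping by chromosome was not planned beforehand.

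Of the others among these 14 receptors, Cd27, a co-stimulatory receptor of resting T cells and the second brightest member, was at 11.28, 11.29 and 11.30 in B6 and at 11.25, 11.30 and 11.20 in B6-ChrYSJL. The pools overlapped, and the 95% confidence interval of the difference ran from -0.19 to 0.10. Tnfrsf12a (Fn14), the receptor for the ligand TWEAK, had the highest difference of any member, 0.23 (standard error 0.10, adjusted p = 0.483), with means of 7.96 ± 0.19 and 8.19 ± 0.11 and overlapping pools. Ltbr, the lymphotoxin beta receptor, which lymphocytes largely lack, was at the background level with a mean of 5.98, and Tnfrsf11a (RANK) lay below it at 5.67.

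The receptors known mainly from B cells were Cd40, Tnfrsf13b (TACI), Tnfrsf13c (BAFF receptor) and Tnfrsf17 (BCMA). Tnfrsf13b was at 7.96, 8.13 and 8.00 in B6 and at 7.96, 7.88 and 7.88 in B6-ChrYSJL. The strains did not overlap, but by a gap of only 0.0051, and the difference was -0.12 (standard error 0.07, adjusted p = 0.572) and -0.07 without B6 replicate 2. Cd40 averaged 6.78 ± 0.13 in B6 and 6.91 ± 0.20 in B6-ChrYSJL, Tnfrsf13c 7.52 ± 0.01 and 7.55 ± 0.16, and Tnfrsf17, close to background, 6.05 ± 0.35 and 5.96 ± 0.02. Cd40 and Tnfrsf13c were both highest in B6-ChrYSJL replicate 3, at 7.14 and 7.72, the pool with the highest B cell list mean, 6.63. Tnfrsf13b and Tnfrsf17 were not highest in that pool, at 7.88 and 5.97. The part of B cell RNA in these values was not tested.

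Death domain receptors numbered 7, with a median of 0.05. At an unadjusted p under 0.05, 2 were lower and 1 higher, beside 5.92% and 4.69% of all transcripts tested. Tnfrsf25 (DR3), the receptor for Tnfsf15 and a co-stimulator of T cells, was at 7.80, 7.87 and 8.04 in B6 and at 7.78, 7.50 and 7.64 in B6-ChrYSJL. The gap was 0.02 and the difference -0.26 (standard error 0.09, adjusted p = 0.408). Tnfrsf10b, the mouse death receptor for TRAIL (Tnfsf10), was at 7.35, 7.48 and 7.41 in B6 and at 7.22, 7.05 and 7.28 in B6-ChrYSJL. The strains were apart by 0.07 and the difference was -0.23 (standard error 0.08, adjusted p = 0.398).

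Ngfr, the low-affinity receptor for neurotrophins, went the other way, at 7.33, 7.22 and 7.30 in B6 and at 7.49, 7.55 and 7.36 in B6-ChrYSJL. It was the 1 member higher at an unadjusted p under 0.05, with a gap of 0.03 and a difference of 0.18 (standard error 0.07, adjusted p = 0.445). Ngfr is also known from stromal cells, whose marker genes had 3 of 5 genes higher, with a median of 0.18, and their part in the Ngfr value was not tested. Tnfrsf1a, the TNF receptor with a death domain, was at 9.26, 9.28 and 9.26 in B6 and at 9.26, 9.06 and 9.19 in B6-ChrYSJL, with B6-ChrYSJL replicate 1 inside the B6 range. Fas averaged 8.59 ± 0.16 and 8.71 ± 0.15 with overlapping pools, a difference of 0.11 with a 95% confidence interval from -0.13 to 0.36. Tnfrsf21 and Edar, the receptor for ectodysplasin, lay below background with means of 5.74 and 5.88.

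**Figure D3:**
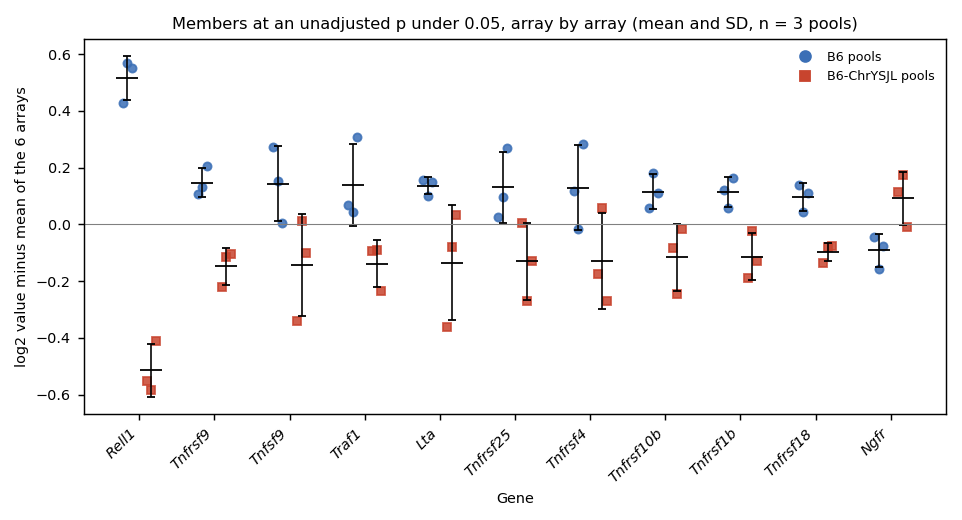
Log2 values of the 11 members at an unadjusted p under 0.05 (x axis) in each pool, as the distance from the mean of the 6 arrays (y axis). Circles are B6 pools, squares B6-ChrYSJL pools, and bars show mean and SD of 3 pools. The strains overlap only in Tnfsf9 and Tnfrsf4, and only Ngfr is higher in B6-ChrYSJL.

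Decoy and other receptors numbered 5, and none had an unadjusted p under 0.05 or strains that did not overlap. Over all transcripts tested, 5.92% were lower and 4.69% higher at that p, and 9.42% and 7.68% without overlap. Tnfrsf26, an orphan receptor on chromosome 7 next to the TRAIL decoy genes Tnfrsf22 and Tnfrsf23, was among the 10 brightest members. Its values were 9.81, 9.88 and 9.80 in B6 and 9.86, 9.78 and 9.89 in B6-ChrYSJL, a difference of 0.01 with a 95% confidence interval from -0.14 to 0.16. Tnfrsf22 averaged 8.39 ± 0.03 and 8.44 ± 0.08, and Tnfrsf23 lay below background at 5.77. These genes are related in sequence, and cross-hybridization among them was not tested. Tnfrsf19 (TROY) averaged 6.35 and 6.29 and Tnfrsf11b, the secreted decoy osteoprotegerin, lay below background at 5.63.

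Ligands numbered 13, with a median difference of -0.07. At an unadjusted p under 0.05, 2 were lower and none higher, beside 5.92% and 4.69% of all transcripts tested. Lta, the secreted lymphotoxin alpha, was at 7.715, 7.659 and 7.708 in B6 and at 7.197, 7.478 and 7.592 in B6-ChrYSJL. The strains did not overlap, with a gap of 0.07, and the B6-ChrYSJL pools were spread more widely (SD 0.20 against 0.03). The difference was -0.27 (standard error 0.10, adjusted p = 0.421) and -0.16 without B6-ChrYSJL replicate 1. Tnfsf9 (4-1BB ligand), the partner of Tnfrsf9, was dim, at 6.54, 6.42 and 6.27 in B6 and at 5.93, 6.28 and 6.17 in B6-ChrYSJL, the first of which was below background. The pools overlapped and the difference was -0.29 (standard error 0.11, adjusted p = 0.422). Without B6-ChrYSJL replicate 1 it was -0.19.

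Ltb, which pairs with Lta in the membrane-bound lymphotoxin, was the brightest member. It was at 11.884, 12.345 and 12.044 in B6 and at 12.203, 11.825 and 12.131 in B6-ChrYSJL. The pools ran through each other, the spread within strains was 0.22, and the 95% confidence interval of the difference ran from -0.35 to 0.27. Cd40lg, through which CD4+ T cells help B cells, was at 9.95, 9.89 and 9.96 in B6 and at 9.95, 10.00 and 9.90 in B6-ChrYSJL. Its pools overlapped too, and the interval was narrower, from -0.13 to 0.16.

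The other 9 ligands had overlapping pools and differences from -0.18 to 0.08. Tnfsf8 (CD30 ligand) averaged 8.84 and 8.70, Tnfsf11 (RANK ligand) 8.18 and 8.11, and Tnfsf10 (TRAIL) 7.74 and 7.60 in B6 and B6-ChrYSJL. Fasl averaged 6.95 and 7.02, Tnfsf14 6.50 and 6.43, and Tnfsf15 6.135 and 6.189. Tnfsf13b (BAFF) was at the background level with means of 6.07 and 5.91. The ligands of Tnfrsf4 and Tnfrsf18, Tnfsf4 (OX40 ligand) and Tnfsf18 (GITR ligand), lay below background at 5.26 and 4.56, so that of these 2 pairs only the receptors had signal in the sorted cells.

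TRAF adaptors, which carry receptor signals to kinases and ubiquitin enzymes, numbered 6, all above background, with a median of -0.08. Traf1, an NF-kappaB target that binds Tnfrsf9 with Traf2, was at 9.10, 9.07 and 9.34 in B6 and at 8.94, 8.94 and 8.80 in B6-ChrYSJL. The strains were apart by 0.13, and the difference was -0.28 (standard error 0.09, adjusted p = 0.376). Traf4 was at 7.95, 7.98 and 7.75 in B6 and at 8.02, 8.11 and 8.08 in B6-ChrYSJL, the only member beside Ngfr in which every B6-ChrYSJL pool was higher. Its difference was 0.18 (standard error 0.08, adjusted p = 0.479), and its unadjusted p of 0.0538 missed the threshold. Without B6 replicate 3 the difference was 0.11. Traf2, Traf5, Traf6 and Traf7 had overlapping pools and differences of -0.12, -0.09, 0.05 and -0.07.

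Across arrays, the members moved by small amounts. The median distance of the 48 members from their own 6-array means was 0.02, 0.04 and 0.03 in the B6 pools and -0.03, -0.06 and -0.02 in the B6-ChrYSJL pools. Of the members, 41 lay above background and 7 did not, and none of the 7 had an unadjusted p under 0.05. Tnfrsf17 varied most within strains, with an SD of 0.25 that came from the B6 pools at 5.70 to 6.39.

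Other genes of the pathway were taken from a list of 44, of which 41 were measured. Of these, 5 were lower and 1 higher at an unadjusted p under 0.05, beside 5.92% and 4.69% of all transcripts tested. In 11 every B6-ChrYSJL pool lay below every B6 pool, beside 9.42%, and in 0 above, beside 7.68%, and none passed an FDR of 0.05. Their median difference was -0.05. Above background were 39 of the 41, as were 14413 of the transcripts tested. Of those 14413, 1031 were lower and 574 higher at that p, and 1759 were lower and 1147 higher without overlap. The 7 measured genes of the IKK and NF-kappaB group had the lowest median, -0.19. All 7 were lower in mean and 3 had an unadjusted p under 0.05, but Rela, Rel and Ikbkg differed by only -0.05, -0.03 and -0.02. Nfkb1 and Chuk were not among the 7. Relb, the NF-kappaB subunit of the alternative pathway, was at 7.84, 7.75 and 7.83 in B6 and at 7.48, 7.53 and 7.53 in B6-ChrYSJL, a difference of -0.29 (standard error 0.06, adjusted p = 0.254) and a gap of 0.22. Map3k14 (NIK), the kinase of the same pathway, was at 8.24, 8.29 and 8.34 in B6 and at 8.12, 8.04 and 8.10 in B6-ChrYSJL, a difference of -0.21 (adjusted p = 0.368). These 2 genes had no overlap between strains.

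The canonical pathway had Ikbkb, the IKK beta kinase, at 9.22, 9.23 and 9.21 in B6 and at 9.03, 9.04 and 8.77 in B6-ChrYSJL, a difference of -0.27 (adjusted p = 0.370). Nfkbia, the inhibitor that NF-kappaB itself induces, was at 10.14, 10.20 and 10.30 in B6 and at 10.00, 9.99 and 10.02 in B6-ChrYSJL, a difference of -0.21 (adjusted p = 0.376). Tab1, a partner of the kinase TAK1, differed by -0.26 (adjusted p = 0.464). All 3 were lower in each B6-ChrYSJL pool. Tnfaip3 (A20), the ubiquitin-editing inhibitor of NF-kappaB, ran the other way at 9.72, 9.80 and 9.99 in B6 and 9.96, 10.05 and 10.23 in B6-ChrYSJL, with overlap and a difference of 0.24 (adjusted p = 0.447). So the 2 feedback inhibitors Nfkbia and Tnfaip3, both NF-kappaB targets, had differences of opposite sign. Of the lower genes, 3 had an unadjusted p under 0.05 without B6 replicate 3, and 10 when limma's variance was allowed to follow signal.

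Of the family genes that the symbol rule left out, Tnf was at 8.16, 8.42 and 8.43 in B6 and at 8.13, 8.20 and 8.15 in B6-ChrYSJL. B6 replicate 1 lay within the B6-ChrYSJL range, and the difference of -0.18 (standard error 0.09, adjusted p = 0.519) did not pass. Eda and its receptor Eda2r were below background, at 5.71 and 4.76.

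**Figure D4:**
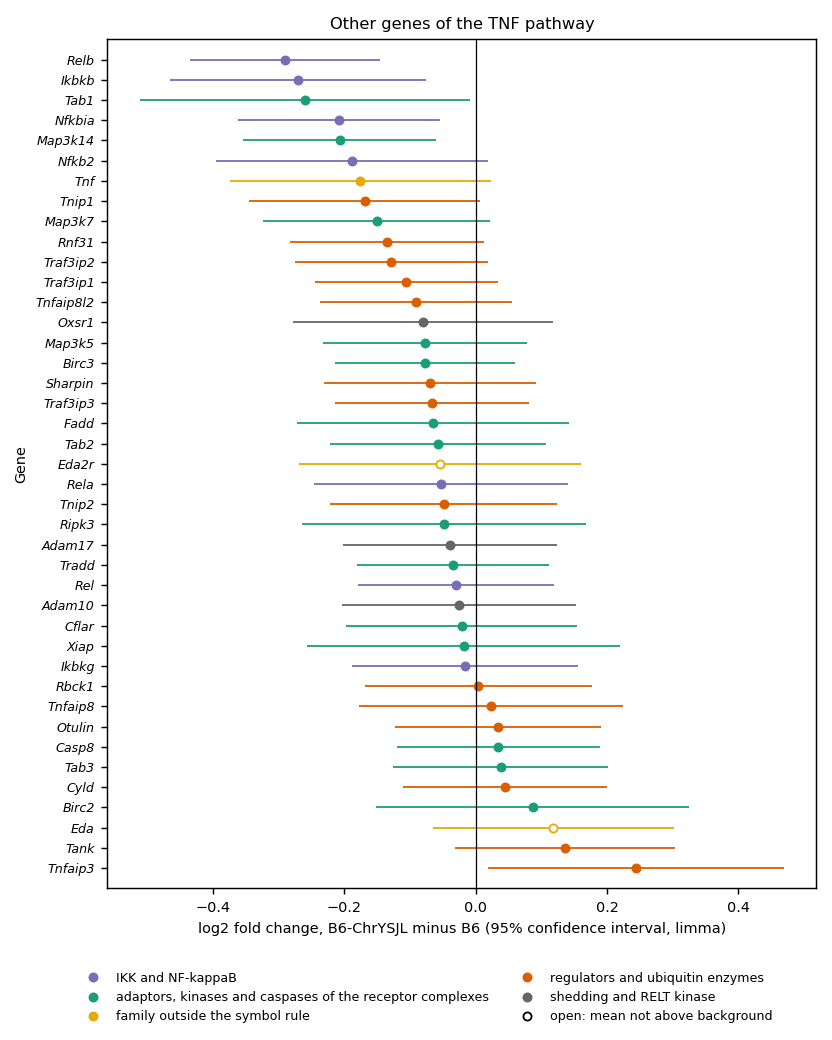
Differences of the 41 other pathway genes in log2 units (x axis, B6-ChrYSJL minus B6), ordered from the lowest to the highest (y axis) and coloured by group. Points are limma estimates from 3 pools per strain, bars are 95% confidence intervals, and open points are below the background level of 5.98. The 7 measured IKK and NF-kappaB genes lie below 0, from Relb at -0.29 to Ikbkg at -0.02, and Tnfaip3 lies highest at 0.24.

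Since many members act through or respond to NF-kappaB, their promoters were searched for the letters GGGANTTTC and GGGAANTCC, which are forms of its binding motif and can overlap, on both strands, in RefSeq windows from 250 bases before to 50 after each start. Either form was in 769 of 32851 promoters (2.34%) and in 3 of the 43 promoters found for 39 member genes, those of Ltb, Tnfrsf9 and Tnfrsf18. The match of Tnfrsf18 lay past the start and is not shown. The other matches, in capitals with 10 bases on each side, are shown because they stand at the brightest member and at the member with the second largest difference. They are from build GRCm38.p6, 5′ to 3′ on the plus strand, at chr17:35194411-35194439 for Ltb and at chr4:150927948-150927976 for Tnfrsf9, the latter before an inner start of the gene.
Ltb: agggtgttcgGAAAGTCCCcgggcagggg
Tnfrsf9: gagcagctggGGATTTCCCaggaggccct
The Ltb match lay 78 to 86 bases before the start and that of Tnfrsf9 33 to 41 bases before it. Both read as the motif on the opposite strand. Ltb had overlapping pools and Tnfrsf9 did not, and Rell1 and Traf1 had none in their windows.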

How the data were processed

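RNA of 6 pools, 3 per strain, was measured on Affymetrix Mouse Gene 1.0 ST arrays after amplification of 50 ng. The authors made the deposited log2 values with RMA in Partek Genomic Suites, which corrects background, quantile-normalizes and summarizes probes per transcript cluster; GCOS and mm9 stand in the submitters' processing notes. These values were used unchanged. Clusters were named through the platform annotation; 23410 had a symbol and were tested, 1621 of them with several symbols, including 1 of the family, which is not named. limma 3.58.1 in R 4.3.3 (lmFit, eBayes) gave every difference, standard error and p, with Benjamini-Hochberg adjustment over the 23410 clusters, and was tested on simulated data. Pools were taken as replicates, as the labels give them. Background was set at the 95th percentile over 1210 transcripts of olfactory or vomeronasal receptors. RMA compresses differences near it, and the number of arrays limits precision. Brightness also depends on probes and is no measure of relative abundance between genes. All 6 values are given for members at an unadjusted p under 0.05 or without overlap and for the 10 brightest, and pathway genes at that p are named, with Tnf, Eda and Eda2r. Members and lists were chosen with earlier results of these data known. Promoters were RefSeq's (GRCm38.p6), a build used for no array coordinate. Alternatives were the methods' linear model, trended and robust variances, array weights, a filter on dim transcripts, all clusters, median centring, repeated quantile normalization, averaged clusters, a replicate block and leaving out each array. Figures were drawn with matplotlib 3.10.9 in Python 3.11.15.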

Additional observations from a re-analysis of the deposited data

How the results depend on the processing

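No called difference changed sign. The count of members past an FDR of 0.05, 1 as reported, was 0 in the unmoderated linear model and 0 over all deposited clusters, and ran from 0 to 1 with 1 array left out. The 10 lower members became 7 to 10 with 1 array left out. The 1 higher member became 3 with an intensity trend, 3 with only transcripts above background, 3 with repeated quantile normalization and 0 with a replicate block, and 0 to 2 with 1 array left out. The median difference of the members ran from -0.0958 to -0.0520 with 1 array left out. The 5 lower pathway genes became 8 in the unmoderated model and 10 with the trend, and 3 to 7 with 1 array left out, and the 1 higher gene became 0 in the unmoderated model, 0 over all clusters and 2 with repeated quantile normalization, and 0 to 2 with 1 array left out. Differences near 0 changed sign for Ltb, 0.089 without B6 replicate 2 and 0.076 without B6-ChrYSJL replicate 2 (-0.142 to 0.089 over the arrays left out), for Cd40lg, -0.0081 and -0.0108 without the same pools (-0.0108 to 0.0395), and for Tnfrsf26, -0.0019 without B6 replicate 3 and -0.0088 without B6-ChrYSJL replicate 3 (-0.0088 to 0.0431). The causes were not tested. Using all clusters adds tests, and the unadjusted limma p of Rell1 also rose, from 5.7e-07 to 5.2e-06. Pools of the same number did not deviate together, with correlations of -1e-04, -0.0358 and -0.0166, so the numbers were not taken to pair them; with the replicate block 9 members were lower and Rell1 stayed past the FDR. Averaging the clusters of a gene left the members as they were, since each had 1. Of 320 values of 20 named members under these alternatives, 309 kept direction and call, 6 changed sign and 5 lost the call. All 5 were of Rell1, since the other named members were not called and had no call to lose. Members below background could show only large differences.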
